A study of Trichoderma asperellum with 9 samples.

Results

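In the soil fungus Trichoderma asperellum strain Ts93, 88 of 9396 gene models were lower both with excess copper and with BCS than in the control. The wild-type strain was given 1 mM copper ions or 0.5 mM BCS or was the control, and each group had 3 libraries of total RNA. The labels give no culture age, medium or duration. They also do not state that replicates were separate cultures, and p-values here measure only the spread between libraries, part or all of which may be technical. The unit throughout is FPKM, a read number divided by the length of the gene model and by the size of the library. Members were selected on the group means and single values in FPKM. A model was a member when its mean FPKM in the copper libraries and in the BCS libraries each gave a log2((treated + 1)/(control + 1)) of -0.75 or less. In addition, every control value had to lie above all 6 copper and BCS values, and the control mean had to be at least 5 FPKM. Both log2 values use the same 3 control libraries, so they are not independent of each other. These values chose the members, so each treatment against the control is given here as a description with no test.

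Copper is an essential cofactor of respiratory and antioxidant enzymes and of secreted oxidases of fungi, and is toxic in excess because it drives redox cycling and displaces other metals. In Saccharomyces cerevisiae, excess copper switches on metallothioneins through one copper-sensing factor, while copper shortage switches on high-affinity uptake and metal reductases through another. BCS is not spelled out in the labels. It commonly stands for bathocuproine disulfonate, a chelator that keeps copper from cells, and this reading would make the treatments opposite changes in copper supply. The deposited table pairs no identifier with a name. Of all its 9396 identifiers, 0 matched an entry among the 12041 genes of the reference strain FT101, and so 0 of the 88 members did. No function is given for any member, and no pathway list could be filled. Of the members, 71 carried a strain-specific number and 17 were supplementary models, whose identifiers have the form of Novel01012.

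Read totals recovered from the FPKM steps were 12335534 to 12836226 in the copper libraries, 12338460 to 14851276 in the BCS libraries and 13198011 to 17142918 in the control libraries. FPKM are relative to each library. Over all 7857 tested models the median log2 value was 0.11 for copper against control and -0.07 for BCS against control. In RNA from whole cultures, fewer cells of a kind and less RNA per cell cannot be told apart.

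Few models met the rule. Of 6181 models with a control mean of at least 5 FPKM, 350 reached the threshold with copper and 792 with BCS, and 112 reached it with both. Of these 112, 24 had a treated value that overlapped the control range, which left the 88 members. A mirrored rule for models higher with both treatments (control below all 6 treated values, both treated means at least 5 FPKM) found 23. The 2 members nearest to the threshold had values of -1.08 and -0.76 with copper and of -0.75 and -1.09 with BCS. The 2 models just outside it had -0.75 with copper, missing the threshold in the third decimal, and -1.08 and -1.12 with BCS.

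The members were left at a smaller share of the control level with BCS than with copper. The median member stood at 39.7% of its control mean with copper, with quartiles of 25.0% and 48.8%. With BCS the median was 24.0%, with quartiles of 13.0% and 36.1%. By the ratio of mean FPKM, 66 members were at least 2-fold below the control with copper and 83 with BCS, and 62 were so with both. At least 4-fold below were 22 members with copper and 46 with BCS. Of these, 19 were at least 4-fold below with both, 27 with BCS alone and 3 with copper alone (Novel01012, 93-3_5.6A1763 and Novel02048), while 39 were at least 4-fold below with neither. Only 4 members, 93-3_5.6A1765, 93-3_5.6A3401, 93-3_5.6A6190 and Novel00798, were at least 8-fold below the control with both. The groups were often close: the lowest control value was at least 2-fold above the highest treated value in 18 members and under 1.1-fold above it in 11. The median of that ratio was 1.41.

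**Figure D1:**
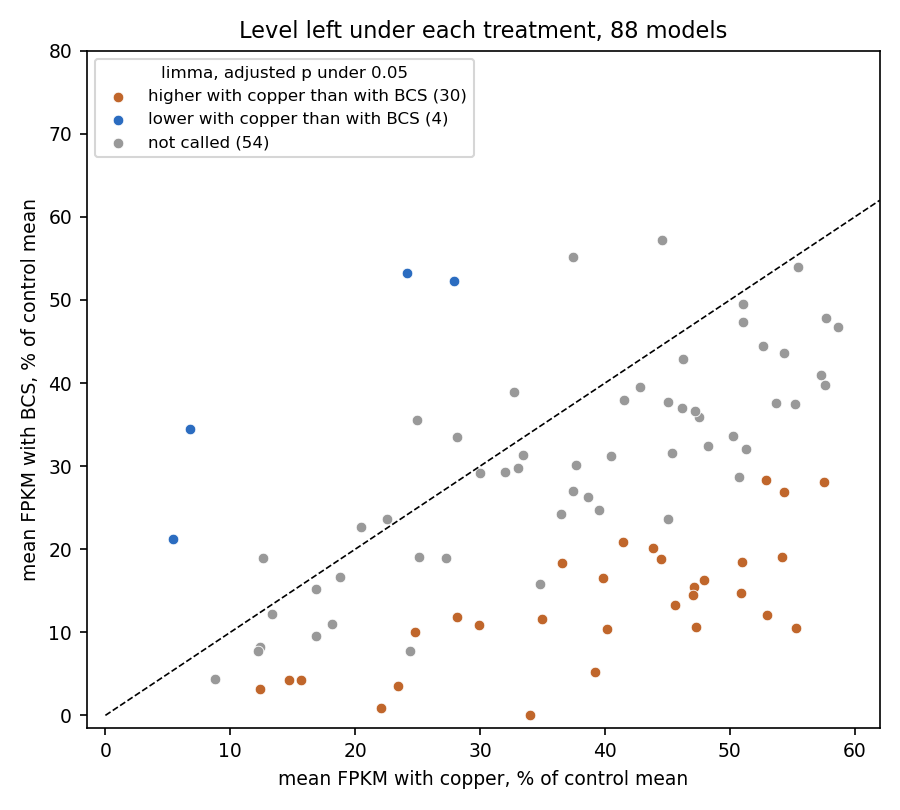
Mean FPKM with copper (x axis) and with BCS (y axis), each as a percentage of the control mean, for the 88 members. Points below the dashed line of equality are lower with BCS than with copper, which holds for 76 of the 88. That share was not taken over all tested models, whose median of copper minus BCS was also positive, at 0.24 log2 units. Colours show the limma calls of copper against BCS.

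On the log2((treated + 1)/(control + 1)) scale, the members lowest with copper were 93-3_5.6A1188 and 93-3_5.6A1765, at -3.52 and -3.36. By the percentage of the control mean, Novel01012 (6.78%) was lower than 93-3_5.6A1765 (8.81%). Model 93-3_5.6A1188 (length 1590 bases) had 0.510, 2.20 and 1.72 FPKM in the copper libraries. It had 5.30, 6.35 and 5.79 FPKM in the BCS libraries and 22.9, 23.0 and 36.1 FPKM in the control libraries. All 3 groups were separate, with copper lowest. Its copper mean was 5.39% and its BCS mean 21.3% of the control mean, and it was the one member at least 16-fold below the control with copper. Model 93-3_5.6A1765 (1161 bases) had 4.75, 12.3 and 7.78 FPKM with copper, 4.68, 5.45 and 2.18 FPKM with BCS and 65.7, 139.1 and 77.5 FPKM in the control. Its copper and BCS values overlapped, with means at 8.81% and 4.36% of the control mean, and control replicate 2 was the highest library.

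On the same log2 scale, the members lowest with BCS were 93-3_5.6A1435 and 93-3_5.6A0677, at -6.33 and -4.70. By the percentage of the control mean, Novel00798 (12.4% with copper and 3.12% with BCS) was lower with BCS than 93-3_5.6A0677, and Novel00360 had no BCS read. Model 93-3_5.6A1435 (249 bases) had 61.9, 37.4 and 61.6 FPKM with copper, 1.30, 2.43 and 2.39 FPKM with BCS and 170.4, 245.5 and 313.9 FPKM in the control. The BCS values rest on 4, 9 and 8 reads, against 560 to 1309 reads in the control libraries. Model 93-3_5.6A0677 (3150 bases) had 38.3, 106.8 and 102.8 FPKM with copper, 10.7, 19.0 and 8.13 FPKM with BCS and 337.4, 299.9 and 422.2 FPKM in the control. In both models the 3 groups were separate, with BCS lowest. The means with copper were 22.0% and 23.4% of the control and those with BCS 0.839% and 3.57%. Across the members, 3 were at or below 10% of the control mean with copper and 12 with BCS, and 7 were at least 16-fold below it with BCS. In these and all other counts of folds, the 1 member with no BCS read stands at a limit of 3 reads per library.

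The supplementary model Novel00360, chosen with its values known, had no read in any BCS library. It had 2.17, 1.42 and 2.32 FPKM with copper, 0 FPKM in all 3 BCS libraries and 4.51, 4.51 and 8.35 FPKM in the control, where these rested on 20, 26 and 47 reads. With a limit of 3 reads per library, its BCS level was at least 8.74-fold lower than the control mean. That limit covers counting error only. It was the one member with 0 reads in any library, and 27 members had fewer than 50 reads in some copper or BCS library.

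The most abundant members were 93-3_5.6A0895 (291 bases) and 93-3_5.6A1912 (468 bases). Model 93-3_5.6A0895 had 70764, 54618 and 69735 FPKM with copper, 23328, 76261 and 81360 FPKM with BCS and 100794, 135308 and 145947 FPKM in the control. It alone held 5.23% to 6.60% of all FPKM in the copper libraries, 2.12% to 7.11% in the BCS libraries and 8.63% to 12.7% in the control libraries. BCS replicate 1 stood apart from the other BCS libraries in this model. Model 93-3_5.6A1912 had 1351, 1160 and 2047 FPKM with copper, 99.8, 595.6 and 633.0 FPKM with BCS and 6898, 5728 and 18439 FPKM in the control. Its control values were spread over more than 3-fold, with replicate 3 highest. The 87 members other than 93-3_5.6A0895 together held 0.417% to 0.514% of all FPKM with copper, 0.178% to 0.319% with BCS and 1.17% to 2.54% in the control. Much of the control sum was 93-3_5.6A1912, with 6898, 5728 and 18439 of 14844.9, 14127.5 and 29158.2 FPKM in control replicates 1, 2 and 3.

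**Figure D2:**
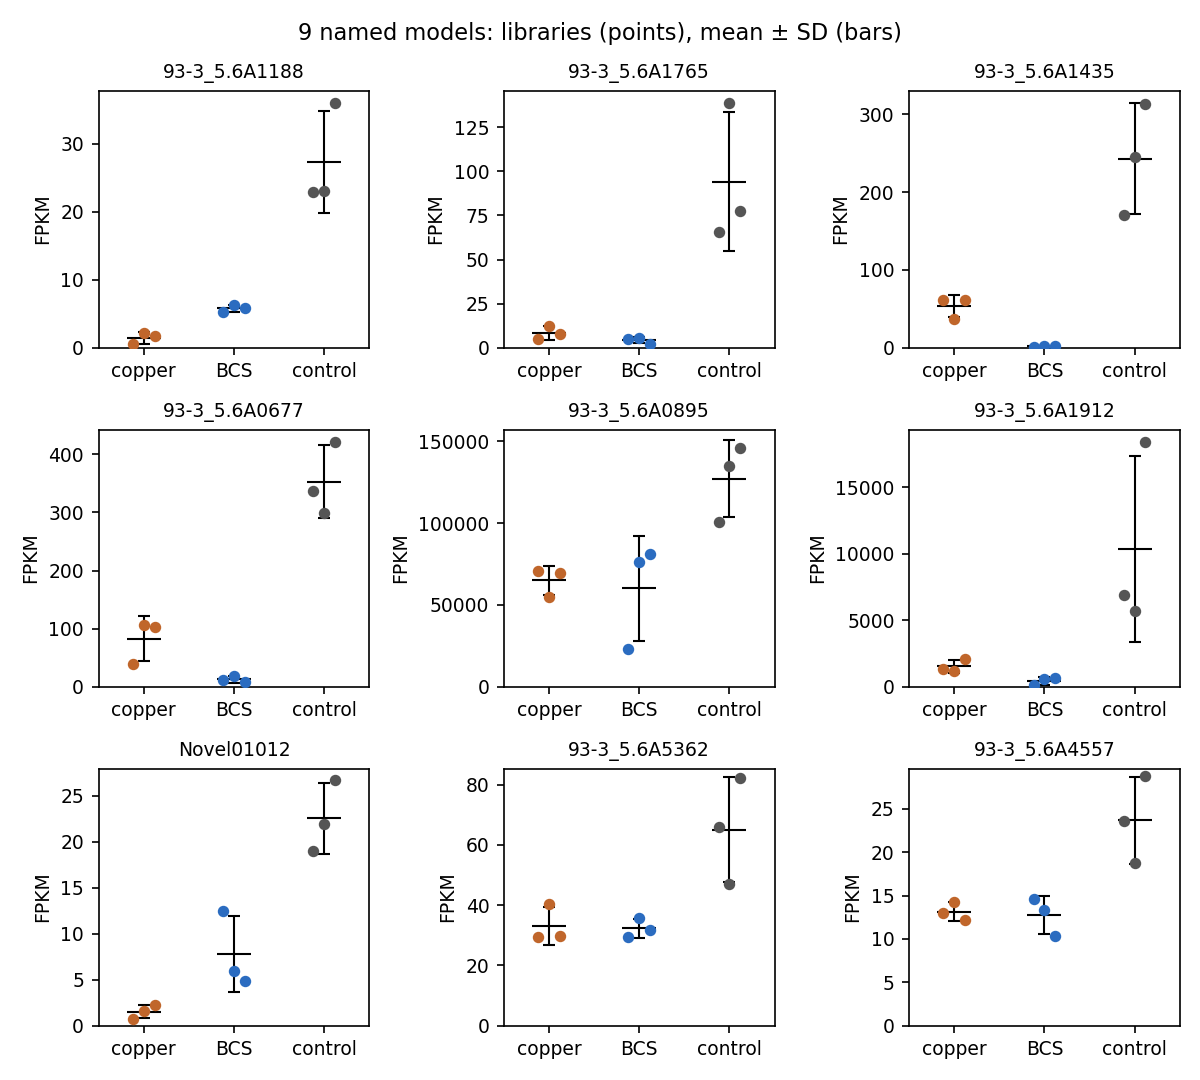
FPKM (linear y axes from 0) of the 9 members named by rule, by group; points are libraries, horizontal marks are means and bars are SD (n = 3). Every control point lies above all treated points, as the rule requires, while the order of copper and BCS differs between models.

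The direct comparison of copper with BCS was not part of the rule, and it was the comparison tested. The rule did set an upper bound on the copper and the BCS values of the members, which all tested models do not share. The test was limma on log2(FPKM + 1) over all tested models, with Benjamini-Hochberg adjustment and calls at an adjusted p under 0.05. Of the 88 members, 30 were higher with copper than with BCS and 4 were lower. Among all tested models, 23.9% were called higher with copper and 11.5% lower, while among the members the shares were 34.1% and 4.55%. In either direction, 38.6% of the members were called, close to the 35.4% of all tested models. The median difference, copper minus BCS, was 0.62 log2 units over the members and 0.24 over all tested models. In 32 members all copper values lay above all BCS values and in 5 all lay below. That is 36.4% and 5.68% of the members, against 32.9% and 16.7% of all tested models.

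Which libraries entered changed the number of members called higher with copper. It was 15 without copper replicate 3, 19 without BCS replicate 1 and 42 without BCS replicate 2, in place of 30. These were 17.0%, 21.6% and 47.7% of the members, in place of 34.1%. The shares of all tested models called higher moved in the same direction, to 15.5%, 15.8% and 36.7%, in place of 23.9%. Scaling the libraries by median-of-ratios moved the median of all tested models to 0.01 log2 units. On that scale 21 members were called higher and 6 lower. These were 23.9% and 6.82% of the members, against 18.0% and 18.2% of all tested models. Those higher with copper made up 77.8% of the called members in place of 88.2% (49.8% in place of 67.4% over all tested models). The median over the members minus the median over all tested models was 0.38 as deposited and 0.37 after this scaling. The median over the members stayed positive under each scaling run, at 0.68 on the TPM scale, 0.40 after quantile normalization and 0.38 after median-of-ratios scaling.

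**Figure D3:**
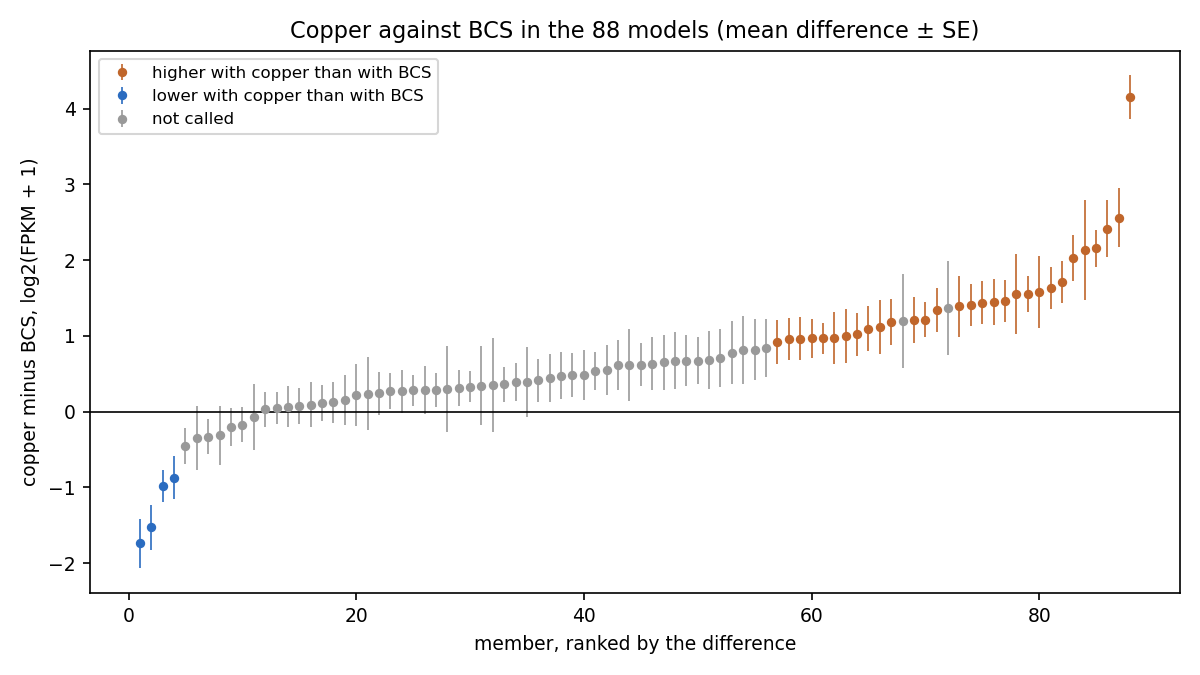
Difference in log2(FPKM + 1) between copper and BCS (y axis) for the 88 members, ranked from lowest to highest (x axis); points are mean differences and bars are SE from limma. Of the members, 30 were called higher and 4 lower with copper than with BCS, and 54 were not called.

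The 30 members called higher with copper stood at a median of 42.6% of the control level with copper and 12.7% with BCS. By the ratio of mean FPKM, 27 of them were at least 2-fold and 6 at least 4-fold higher with copper than with BCS. The largest difference was that of 93-3_5.6A1435, with 53.6 ± 14.1 FPKM with copper and 2.04 ± 0.640 FPKM with BCS (mean ± SD, n = 3 each), a log2 difference of 4.15 ± 0.29 (SE, limma adjusted p = 2.6e-06). The next was that of 93-3_5.6A0677, with 82.7 ± 38.4 FPKM with copper and 12.6 ± 5.67 FPKM with BCS, a log2 difference of 2.56 ± 0.39 (limma adjusted p = 0.00060). For 93-3_5.6A1912 the difference was 2.13 ± 0.66 (limma adjusted p = 0.028). Without BCS replicate 1 the difference was 1.26. The call of 93-3_5.6A1912 was lost after median-of-ratios scaling (limma adjusted p = 0.053) and without copper replicate 1 (0.067), copper replicate 3 (0.098) or BCS replicate 1 (0.079), and its adjusted p ranged from 0.010 to 0.098 over all alternatives.

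The 4 members called lower with copper than with BCS were Novel01012, 93-3_5.6A1188, 93-3_5.6A1763 and 93-3_5.6A2711. Model Novel01012 (845 bases) had 0.768, 1.60 and 2.21 FPKM with copper, 12.5, 5.98 and 4.83 FPKM with BCS and 18.9, 22.0 and 26.6 FPKM in the control. The 3 groups were separate, and copper minus BCS was -1.74 ± 0.33 log2 units (SE, limma adjusted p = 0.0021). For 93-3_5.6A1188 the difference was -1.53 ± 0.29 (limma adjusted p = 0.0022). With a pseudocount of 5, which weighs low values less, these differences were -0.93 and -0.75, and both stayed called. Model 93-3_5.6A1763 (1446 bases) averaged 4.22 ± 0.506 FPKM with copper, 9.30 ± 0.527 FPKM with BCS and 17.4 ± 4.40 FPKM in the control (SD, n = 3 each), a difference of -0.98 ± 0.21 log2 units between the treatments (limma adjusted p = 0.0043). Model 93-3_5.6A2711 (378 bases) averaged 59.6 ± 16.6 FPKM with copper, 111.7 ± 41.5 FPKM with BCS and 213.4 ± 46.8 FPKM in the control. Its difference was -0.87 ± 0.29 log2 units (limma adjusted p = 0.036), and the call was lost without copper replicate 2 (0.12), copper replicate 3 (0.13), BCS replicate 2 (0.085) or BCS replicate 3 (0.0502). The last 2 models were named after their values were seen, because the group has only 4 members.

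For the other 54 members no difference between copper and BCS was called, and 47 of them had a positive difference. The median over all tested models was also positive, at 0.24 log2 units, and was 0.01 after median-of-ratios scaling. The uncalled members with the smallest difference were 93-3_5.6A5362 and 93-3_5.6A4557. Model 93-3_5.6A5362 (1845 bases) had 29.5, 40.5 and 29.6 FPKM with copper, 29.5, 35.6 and 31.7 FPKM with BCS and 66.0, 47.2 and 82.1 FPKM in the control. Model 93-3_5.6A4557 (1962 bases) had 13.0, 14.3 and 12.1 FPKM with copper, 14.6, 13.4 and 10.4 FPKM with BCS and 23.6, 18.7 and 28.7 FPKM in the control. Copper and BCS values overlapped in both, with differences of 0.03 ± 0.23 and 0.05 ± 0.21 log2 units (SE, limma adjusted p = 0.93 and 0.88). After median-of-ratios scaling these differences were -0.23 and -0.20 log2 units, and neither was called. A missing call does not show equal levels: the means of 3 uncalled members, 93-3_5.6A1765, 93-3_5.6A6305 and 93-3_5.6A0721, differed at least 2-fold between the treatments.

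The members were not equally high in the 3 control libraries. Control replicate 3 held the highest control value in 68 members (77.3%), control replicate 2 in 14 and control replicate 1 in 6. Among all models with a control mean of at least 5 FPKM, control replicate 3 was highest in 33.8%. The rule favours models with a high control mean but treats the 3 control libraries alike. What sets this pattern was not tested. Without control replicate 3 the rule found 77 models, of which 68 were among the 88 members. Without control replicate 1 it found 132, of which 86 were members, and without control replicate 2 it found 124, of which 82 were members. Leaving out a library also relaxes the condition on overlap. The highest control value exceeded the lowest more than 3-fold in 8 members. A range over 2-fold was found in 23.9% of the members, against 16.9% of all models with a control mean of at least 5 FPKM.

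Among the BCS libraries, replicate 2 was the highest in 67 members (76.1%), which is near the 70.7% of all models with a control mean of at least 5 FPKM. On the scale of log2((FPKM + 1)/(control mean + 1)), the median member was at -1.51, -1.24 and -1.18 in copper replicates 1, 2 and 3. In BCS replicates 1, 2 and 3 it was at -2.30, -1.69 and -2.14. Over all models with a control mean of at least 5 FPKM, the medians were 0.22, 0.06 and 0.06 in the copper replicates. In the BCS replicates they were -0.28, 0.13 and -0.23, in the same order. Copper replicate 1 was the lowest copper library in 46 members and the highest in 29 (33.0%), while it was the highest in 57.1% of all models with a control mean of at least 5 FPKM.

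**Figure D4:**
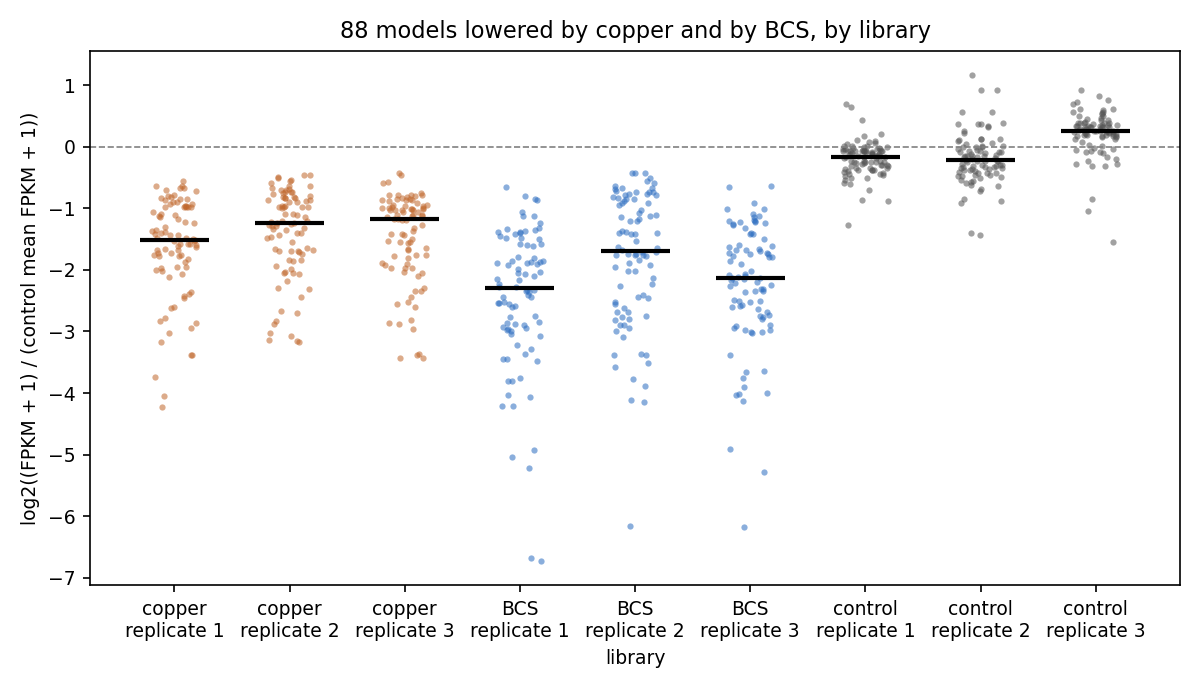
Log2((FPKM + 1)/(control mean FPKM + 1)) of each of the 88 members (points) in the 9 libraries, with the median as a black line. All copper medians (-1.51 to -1.18) lie above all BCS medians (-2.30 to -1.69), and of the control libraries replicate 3 has the highest median (0.26). Over all models with a control mean of at least 5 FPKM, copper medians were 0.06 to 0.22 and BCS medians -0.28 to 0.13.

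Further properties of the members are given as a description. The rule did not use the form of the identifier or the length. It did use control means and single values, so the control levels and within-group spreads below are not independent of it. Supplementary models made up 19.3% of the members and 9.98% of all models with a control mean of at least 5 FPKM. The numbered members had a median length of 1161 bases, with a range from 210 to 7404 bases. All numbered models at that control level had a median of 1150.5 bases. The supplementary members had a median length of 1624 bases, against 1977 bases. Control means ranged from 5.22 to 127350 FPKM with a median of 50.8, against a median of 33.9 for all models at that level. The libraries of a group differed more in the members. Their median within-group SD in log2(FPKM + 1) was 0.32 with copper, 0.47 with BCS and 0.34 in the control. For all models with a control mean of at least 5 FPKM it was 0.17, 0.33 and 0.25. These models were not matched to the members on treated level. The median member had a mean of 15.9 FPKM with copper and 10.6 FPKM with BCS.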

How the data were processed

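The authors deposited 1 table of FPKM values with 1 column per library. The tools listed by the submitters' processing notes, without roles, are DESeq 1.18.0, HTSeq 0.6.1, TopHat2 2.0.12 and Bowtie2 2.2.3. The notes list a mouse genome build, which cannot be that of a fungus; the true genome and annotation are not given in the sources. From the deposited FPKM, library totals, model lengths and reads were recovered as the whole numbers that fit each value (tolerance 0.01 reads). Models with at least 1 FPKM in at least 3 of 9 libraries (7857) were fitted with limma 3.58.1 (R 4.3.3, mean-variance trend, log2(FPKM + 1), 1 mean per group, all libraries, two-sided, Benjamini-Hochberg over all tested models). All 88 members also passed this filter over the 6 copper and BCS libraries alone. The fit and the recovery of reads were tested on simulated data. Fold changes on this scale understate changes of low models. Members, comparisons and alternatives were chosen with earlier results of these data known. Named members were those with extreme copper, BCS, control or copper-minus-BCS values, 2 for each, and 2 with the smallest difference.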

Additional observations from a re-analysis of the deposited data

How the results depend on the processing

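The rule found 136 models at a threshold of -0.5 and 60 at -1. It found 64 on the TPM scale, 124 after median-of-ratios scaling (84 of them members) and 121 after quantile normalization (85 of them members). Without each library in turn it found 77 to 132. In copper against BCS, models called lower with copper over all tested models numbered 1429 after median-of-ratios scaling and 1367 after quantile normalization, in place of 906. Without each library in turn, 1814 to 3743 models were called (1208 to 2856 higher and 606 to 953 lower), among them 15 to 42 members higher and 3 to 4 lower, and the median over the members was 0.42 to 0.87 log2 units. Under the other alternatives 21 to 30 members were higher and 3 to 6 lower. With the replicate number as a block, 2435 models were called in place of 2782, with 30 members higher and 3 lower, 29 of the 30 shared with the fit without it. In that fit 93-3_5.6A1765 was called (limma adjusted p = 0.0495) and 93-3_5.6A2711 was not (0.058). Deviations from group means, over models, correlated at -0.276 to 0.211 between libraries of equal number. Between libraries of unequal number they correlated at -0.308 to 0.334. With 3 libraries per group, deviations within a group depend on each other, so these correlations cannot settle whether equal numbers mark paired libraries. In 27 members some copper or BCS value rests on fewer than 50 reads, which limits the precision of those values.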

Other observations

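The numbers in the identifiers of some members lay close together. No label or header says what the numbers stand for or whether they follow the genome. Of the 71 numbered members, 12 (16.9%) had another member within 3 numbers, against 5.32% of the 5493 other numbered models with a control mean of at least 5 FPKM. Within 10 numbers the shares were 23.9% and 16.6%. No test was made of these shares. Models 93-3_5.6A1912 and 93-3_5.6A1913, chosen after their values were seen, have consecutive numbers. Model 93-3_5.6A1913 had 8.39, 4.87 and 8.81 FPKM with copper, 0.466, 3.61 and 1.99 FPKM with BCS and 36.0, 24.4 and 80.6 FPKM in the control. Its copper and BCS means were 15.6% and 4.30% of the control mean, against 14.7% and 4.28% for 93-3_5.6A1912, and control replicate 3 was the highest library in both. Consecutive numbers did not always go with similar values: 93-3_5.6A6305 had 66.6, 234.3 and 67.9 FPKM in the control libraries, highest in replicate 2, and 93-3_5.6A6306 had 9.84, 6.41 and 14.0 FPKM, highest in replicate 3.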
